A study of Mus musculus with 16 samples.

Results

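The trunk was compared with the caudal region of mouse embryos that lacked the endothelin receptor B (Ednrb-/-), using the 4 trunk and the 4 caudal libraries of that genotype, which are 8 of the 16 libraries of the study. All genes that reached 0.5 FPKM (fragments per unit of transcript length, scaled to the library's total) in at least 4 of the 16 libraries were tested, which gave 17205 of the 56748 genes listed. Embryos of both genotypes, Ednrb-/- and wild type (WT, Ednrb+/+), were taken at E11.5, midgestation, and divided into the same regions, and total RNA of each region was sequenced from 4 biological replicates. The study asks how the local environment in the embryo bears on where pigmented spots form when the receptor is missing. The labels used here do not state the allele beyond its genotype, the strain, the planes of dissection or which embryo each region came from, so p-values measure the spread between these samples, which may be partly technical.

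Ednrb is a G protein-coupled receptor for the endothelins, and its main ligand in the embryo is endothelin 3. Melanoblasts, the migrating precursors of pigment cells, and the precursors of the enteric nervous system both arise from the neural crest and need this signal, so loss of the receptor leaves an unpigmented coat with residual spots and a distal gut without ganglia. At this stage the trunk and the tail end differ in age as well as in position: the tailbud still adds new axial tissue, while somites, neural tube and crest further forward have begun to differentiate, and Hox genes of successively higher paralog number are switched on towards the tail.

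The 8 Ednrb-/- libraries held 34883821 to 42071775 reads in listed genes in the trunk and 35828643 to 37251226 in the caudal region, against 35579221 to 43444905 in the WT libraries. The share of reads from ribosomal protein genes was 3.50% ± 0.109 (SD, n = 4) in the trunk and 3.94% ± 0.0937 (SD, n = 4) in the caudal region, and the part of this difference in the results was not tested. Ednrb-/- trunk 3 and Ednrb-/- caudal 3 held both Xist, at 9.92 and 5.72 FPKM, and the Y-linked Ddx3y, at 17.8 and 17.3 FPKM, and 1 WT caudal library held both as well. Ednrb-/- trunk 2 had the highest Xist level of the 8, 135.4 FPKM, and the other 5 libraries were Y-linked gene positive. Of the variation over the 8 libraries, 54.2% lay along a first component that separated the regions without overlap, and 8.77% along a second that set Ednrb-/- caudal 1 and 3 apart from caudal 2 and 4.

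The targeted gene was read first. Ednrb, the receptor itself, stood at 3.87, 3.89, 4.80 and 3.37 FPKM in the Ednrb-/- trunk libraries and at 1.77, 2.55, 3.44 and 1.59 in the caudal ones. All 8 values lay far below the WT means of 38.7 ± 2.79 FPKM (SD, n = 4) in the trunk and 30.6 ± 3.17 in the caudal region. The remaining reads were higher in the trunk (log2 0.70 ± 0.16 (SE), adjusted p = 0.00306), although caudal 3 overlapped the lowest trunk library. The labels used here do not say which exons the allele removes, so these reads cannot be assigned to an intact transcript.

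The trunk of the Ednrb-/- embryos carried more RNA of differentiated neurons, striated muscle and connective tissue. The caudal region carried more RNA of posterior Hox genes, axial progenitors, presomitic mesoderm, hindlimb, epithelium and hedgehog signalling. At a limma adjusted p under 0.05, 6234 of the 17205 genes (36.2%) differed, 2982 higher in the trunk (17.3%) and 3252 higher in the caudal region (18.9%). Most differences were small: 353 genes (2.05%) were called at 2-fold or more in the trunk direction and 112 (0.651%) in the caudal direction, and the median log2 difference over all genes was -0.01. The 4 libraries of one region lay wholly above those of the other for 2927 genes in the trunk direction (17.0%) and 2892 in the caudal direction (16.8%). These are bulk tissues, so fewer cells of a type and less RNA per cell cannot be told apart.

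The count at 2-fold moved with the constant added before taking logarithms, from 465 with 0.5 FPKM to 893 with 0.1 and 274 with 1. When values were rescaled to an equal FPKM total in every library (TPM), 66.9% of the calls were higher in the trunk, against 47.8% here, so which direction holds more calls depends on the scaling (3936 trunk and 1945 caudal with TPM, 3529 and 2633 in limma voom on whole reads). Without the libraries that held both Xist and Ddx3y, 5098 genes were called.

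**Figure D1:**
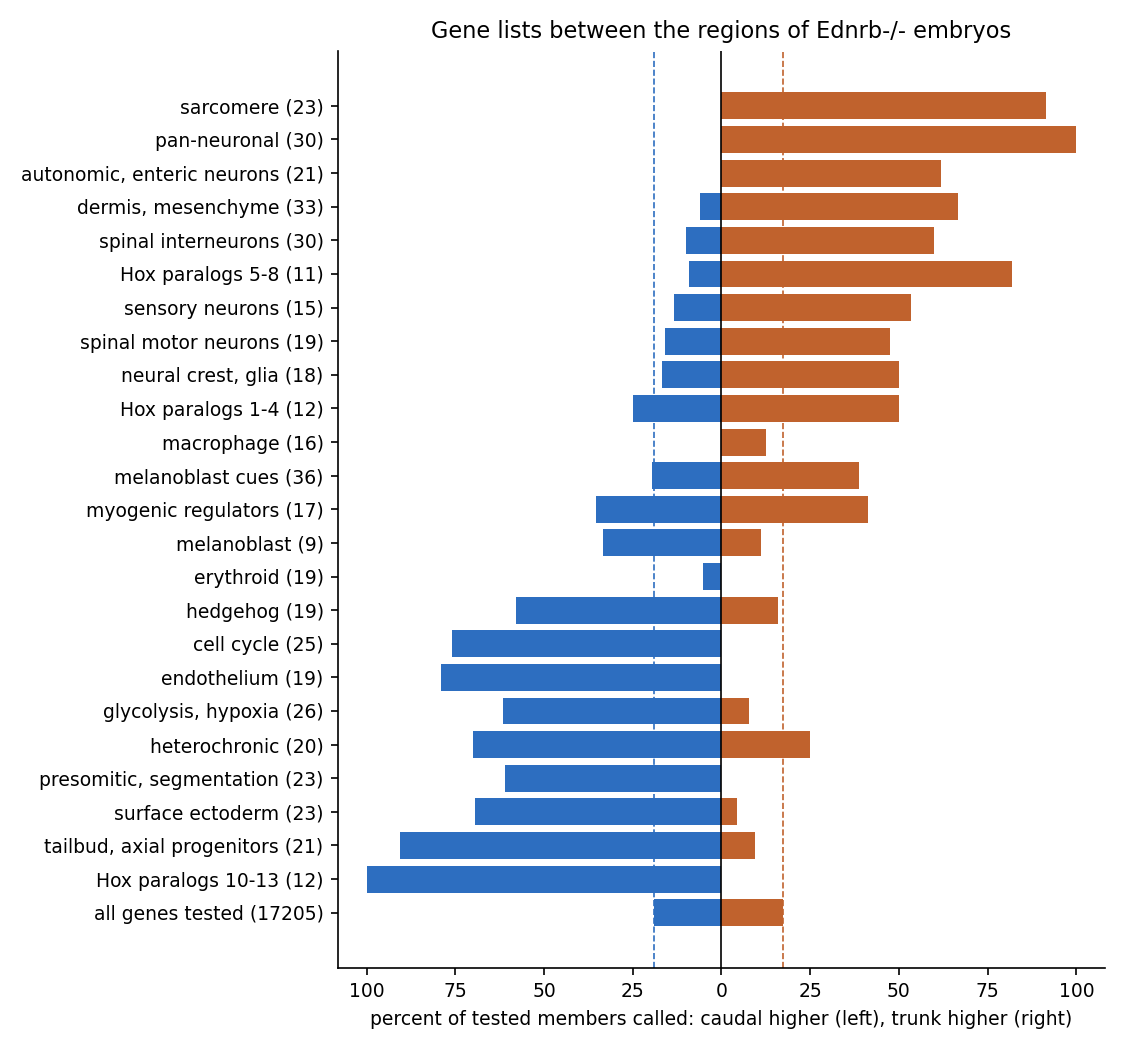
Percent of the tested members of each gene list called at a limma adjusted p under 0.05, caudal higher to the left and trunk higher to the right, with the number of tested members in brackets and dashed lines at the shares for all genes (18.9% and 17.3%). Bars of posterior Hox genes fill the left side and those of pan-neuronal genes the right side.

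Hox genes, which encode the homeodomain transcription factors that set position along the body axis, split by paralog number. All 12 tested genes of groups 10 to 13 were higher in the caudal region, against 18.9% of all genes, and each at 2-fold or more. In groups 5 to 8, 9 of 11 were higher in the trunk and 1, Hoxd8 (log2 -0.34), in the caudal region, with a median of 0.48. Groups 1 to 4 were mixed, with 6 of 12 higher in the trunk and 3 in the caudal region, led by Hoxb1 (log2 -0.87). The posterior genes thus separated the regions as labelled, also without the libraries with both Xist and Ddx3y (0 trunk and 12 caudal in groups 10 to 13).

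Among the most posterior genes, Hoxd13, which patterns digits, genital tubercle and cloaca, read 0, 0.0690, 0.148 and 0.0399 FPKM in the trunk and 26.3, 27.5, 20.6 and 24.7 in the caudal region. All trunk libraries were near 0 and all caudal ones high (log2 -5.48 ± 0.12 (SE), adjusted p = 2.18e-13). Its caudal mean was 385-fold the trunk mean, from 8774 against 25 reads summed over 4 libraries. Hoxc11 was listed at 0 in all 4 trunk libraries and at 28.9, 27.3, 23.5 and 28.2 FPKM in the caudal ones, at least 2860-fold higher against a floor of 3 reads over the group. Hoxc12 and Hoxb13 were also at 0 in the trunk, at least 627-fold and 423-fold higher in the caudal region by the same floor.

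Hoxa13, active in the same terminal structures, read 0, 0, 0.0204 and 0.0207 FPKM in the trunk and 8.55, 8.60, 7.74 and 10.1 in the caudal region (log2 -4.17 ± 0.12 (SE), adjusted p = 2.89e-12). Every trunk value was at or near 0. Hoxa11, a gene of the middle limb segment and the kidney field, read 0.228, 0.0250, 0.172 and 0.173 FPKM in the trunk and 13.8, 16.4, 11.48 and 16.1 in the caudal region. The trunk libraries were all low and none overlapped (log2 -4.52 ± 0.24 (SE), adjusted p = 6.61e-09). Genes of group 10, which mark the lumbosacral level, were not silent in the trunk. Hoxc10 stood at 16.0, 14.7, 5.23 and 17.4 FPKM there and at 61.6, 70.5, 69.1 and 66.8 in the caudal region (log2 -2.41 ± 0.35 (SE), adjusted p = 0.000113), with trunk 3 the lowest library. The fitted median over the 12 genes was -4.36, and -7.21 as a log2 ratio of means with the 3 genes at 0 set to their bound.

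Genes of group 9 lay at the turning point. Hoxb9 stood at 105, 107, 104 and 96.3 FPKM in the trunk and 44.7, 47.2, 52.4 and 44.3 in the caudal region, about level within each and without overlap (log2 1.12 ± 0.11 (SE), adjusted p = 5.03e-06). Hoxd9 went the other way, at 11.0, 9.32, 6.19 and 11.4 FPKM in the trunk and 23.9, 27.4, 28.4 and 26.3 in the caudal region (log2 -1.47 ± 0.19 (SE), adjusted p = 3.29e-05). Hoxc9 followed Hoxb9 (log2 0.64) and Hoxa9 followed Hoxd9 (log2 -0.51). On the trunk side the largest difference was Hoxc8, a thoracic gene, at 54.8, 54.3, 55.4 and 54.1 FPKM in the trunk and 8.36, 9.56, 9.35 and 10.9 in the caudal region. Its trunk libraries lay within 2 FPKM of each other and lay far above the caudal ones (log2 2.46 ± 0.10 (SE), adjusted p = 9.95e-11). Its neighbours Hoxc6 (log2 1.87) and Hoxc5 (log2 1.84) differed in the same direction.

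**Figure D2:**
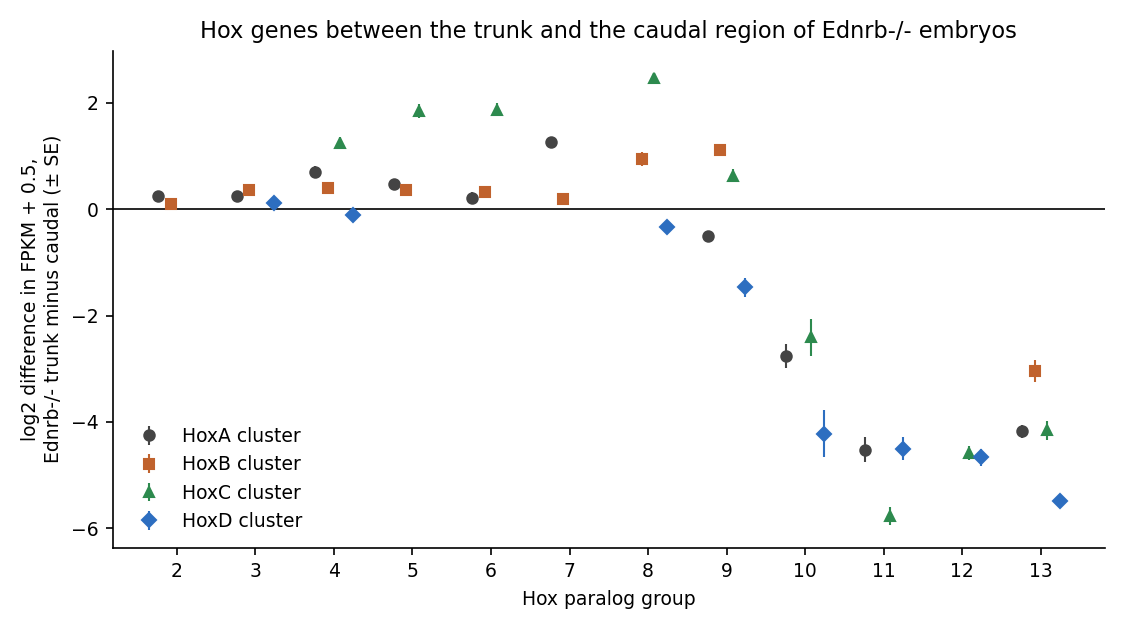
Log2 difference in FPKM + 0.5 (Ednrb-/- trunk minus caudal, ± SE from limma) on the y axis for tested Hox genes by paralog group, 2 to 13, on the x axis, with 1 symbol for each cluster. Groups 10 to 13 all lie below 0, nearest to it Hoxc10 at -2.41, and Hoxc8 is the highest point at 2.46.

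A list of 15 noncoding RNAs of the Hox clusters, which does not hold Mir615, had 7 members higher in the caudal region and 0 in the trunk. The other 8 were not called, so 46.7% were called, against 36.2% of all genes. Hotair, a long noncoding RNA of the HoxC cluster that lies between Hoxc11 and Hoxc12, read 0.0472, 0, 0 and 0 FPKM in the trunk and 5.92, 5.27, 5.47 and 4.67 in the caudal region (log2 -3.51 ± 0.09 (SE), adjusted p = 1.11e-12). Only trunk 1 was above 0. Hottip, the noncoding RNA beside Hoxa13, was listed at 0 in every trunk library and at 1.05, 0.639, 0.847 and 0.937 FPKM in the caudal ones, at least 131-fold higher. Hoxa11os, which runs antisense to Hoxa11, was also higher in the caudal region (log2 -3.20). The sources used here do not say whether counting used strand, so reads of Hoxa11 and Hoxa11os cannot be told apart.

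A pair of microRNA genes in these clusters differed in opposite directions. Their mature sequences from RefSeq (GRCm38.p6) are shown because the seed, bases 2 to 8 and in capitals, sets which messenger RNAs a microRNA binds. miR-196a, at chr11:96265187-96265208 on the plus strand in the HoxB cluster, is known to target Hox messenger RNAs such as Hoxb8, while miR-615 comes from a hairpin in an intron of Hoxc5, at chr15:103014926-103014947 on the plus strand and chr15:103014969-103014990 on the plus strand.
mmu-miR-196a-5p: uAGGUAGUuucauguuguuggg
mmu-miR-615-5p: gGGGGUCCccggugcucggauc
mmu-miR-615-3p: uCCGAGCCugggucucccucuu
The 3 seeds differ from each other. The Mir196a-1 gene read 21.8, 19.3, 13.7 and 17.2 FPKM in the trunk and 48.2, 50.8, 45.6 and 59.4 in the caudal region, with no overlap (log2 -1.49 ± 0.16 (SE), adjusted p = 6.64e-06), from 291 and 741 reads. Mir615, singled out after its values were seen, read 3.61, 5.27, 7.47 and 7.81 FPKM in the trunk and 0.590, 0.615, 3.04 and 3.43 in the caudal region. Caudal 3 and 4 came close to the lowest trunk library without reaching it (log2 1.63 ± 0.47 (SE), adjusted p = 0.0129), and the 88 and 25 reads behind it make it imprecise. These are reads over the hairpin gene, not a measure of the mature microRNA, and those of Mir615 cannot be told apart from Hoxc5 intron RNA.

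Axial progenitors of the tailbud, which feed the growing spinal cord and paraxial mesoderm, were marked by a list of 21 tested genes. In the caudal region 19 were higher, 11 of them at 2-fold or more, and 2 were higher in the trunk, Epha5 (log2 1.00), an Eph receptor also present in neurons, and Fgf4 (log2 0.51), a growth factor. The list median was -1.01, and -1.22 as a log2 ratio of means with Cdx4 at its bound, against -0.01 over all genes. Without the libraries with both Xist and Ddx3y, 16 were called in the caudal and 2 in the trunk direction.

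T (brachyury), the T-box factor required for notochord and tail formation, read 1.84, 1.47, 1.64 and 1.92 FPKM in the trunk and 14.0, 7.11, 13.7 and 19.8 in the caudal region (log2 -2.60 ± 0.31 (SE), adjusted p = 2.42e-05). Even the lowest caudal library, caudal 2, exceeded every trunk library several-fold. Sall4, a zinc-finger factor of progenitor cells, read 1.90, 2.44, 2.15 and 2.80 FPKM in the trunk and 11.2, 15.9, 9.71 and 13.6 in the caudal region, a 5.42-fold difference of the means (log2 -2.20 ± 0.17 (SE), adjusted p = 4.71e-07). Cdx factors are upstream activators of posterior Hox genes. Cdx2 read 0, 0, 0 and 0.0439 FPKM in the trunk and 1.67, 1.24, 1.51 and 2.68 in the caudal region (log2 -2.12 ± 0.26 (SE), adjusted p = 2.40e-05), and Cdx4 was at 0 in all trunk libraries against 2.13, 1.70, 1.84 and 3.92 FPKM, at least 247-fold higher. The growth factors Fgf17 (log2 -1.92) and Fgf8 (log2 -1.51), and Wnt3a (log2 -0.72), which sustain the progenitors, were also higher in the caudal region. Cdx1 and Noto, a notochord factor, were below the filter and were compared by an exact permutation test. In both all caudal libraries lay above all trunk ones (exact p = 0.0286, two-sided, the smallest that 4 against 4 allows, and 0.114 after adjustment over 12 low genes).

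Presomitic mesoderm, the unsegmented tissue from which somites form, gave the same direction: 14 of 23 tested genes were higher in the caudal region and 0 in the trunk, with a median of -0.61. Msgn1, a factor needed to make presomitic mesoderm, is switched on by Wnt signalling through Lef and Tcf proteins. The 250 bases before its start, at chr12:11208949-11209198 on the minus strand (RefSeq, GRCm38.p6), are shown with the single match to the Lef/Tcf motif ATCAAAG (searched on both strands) in capitals.
Msgn1 promoter: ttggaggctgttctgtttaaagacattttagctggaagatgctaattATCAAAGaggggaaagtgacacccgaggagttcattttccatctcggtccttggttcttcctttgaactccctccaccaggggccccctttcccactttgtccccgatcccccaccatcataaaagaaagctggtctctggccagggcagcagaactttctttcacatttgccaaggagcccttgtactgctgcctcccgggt
This motif occurs in 1053 of all 32851 windows of that length (3.21%), and Msgn1 is the 1 gene among the 19 presomitic genes with a window that holds it. Counted by gene, that is 5.26%, against 2.75% of tested genes with a window, and 1 gene cannot show an excess. Msgn1 read 0, 0.466, 0 and 0 FPKM in the trunk and 5.67, 1.66, 5.90 and 6.88 in the caudal region (log2 -3.09 ± 0.50 (SE), adjusted p = 0.000259). It was at 0 in 3 of 4 trunk libraries, and caudal 2 was the lowest of its group.

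Tbx6, which commits progenitors to the paraxial mesoderm, read 0.381, 0.443, 0.204 and 0.357 FPKM in the trunk and 4.94, 3.72, 4.47 and 5.82 in the caudal region, with no overlap (log2 -2.62 ± 0.33 (SE), adjusted p = 3.11e-05). Ripply1, which ends Tbx6 activity as a somite boundary forms, read 0, 0.0704, 0.0605 and 0 FPKM in the trunk and 1.54, 1.78, 0.933 and 1.77 in the caudal region (log2 -1.89 ± 0.18 (SE), adjusted p = 2.92e-06). Every trunk library was at or near 0. Dkk1, a secreted Wnt inhibitor, read 0.840, 0.811, 1.496 and 1.14 FPKM in the trunk and 5.64, 5.82, 4.77 and 6.93 in the caudal region (log2 -2.01 ± 0.20 (SE), adjusted p = 3.92e-06). The oscillating clock genes Hes7 (log2 -1.63) and Lfng (log2 -0.57) differed in the same direction. Dll1, the Notch ligand of the same tissue, was not called (log2 -0.14, adjusted p = 0.264).

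Of 4 hindlimb genes 3 were higher in the caudal region, Tbx4, Pitx1 and Isl1, and 1 in the trunk. Tbx4, a T-box factor that marks the hindlimb field, read 0.188, 0.243, 0.202 and 0.284 FPKM in the trunk and 8.26, 6.82, 8.95 and 11.0 in the caudal region, with the trunk libraries all under 0.3 (log2 -3.65 ± 0.34 (SE), adjusted p = 2.76e-06). Pitx1, the homeodomain factor that activates it, read 2.34, 2.38, 1.55 and 2.86 FPKM in the trunk and 10.7, 8.48, 11.6 and 11.7 in the caudal region (log2 -2.01 ± 0.38 (SE), adjusted p = 0.000819). Caudal 2 was the lowest of its group and still above all trunk libraries. Tbx5, the forelimb counterpart, read 0.978, 1.33, 2.44 and 1.41 FPKM in the trunk and 1.07, 0.751, 1.06 and 0.725 in the caudal region, and the groups overlapped (log2 0.50 ± 0.30 (SE), adjusted p = 0.211). Of genes of limb outgrowth shared by both limbs, 5 were higher in the trunk and 8 in the caudal region of 29 tested. That is 44.8% called, near the 36.2% of all genes.

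Hedgehog signalling was higher in the caudal region in 11 of 19 tested genes and in the trunk in 3 (Cdon, Boc and Disp1), with a median of -0.23. Shh, the secreted ligand made by notochord, floor plate, limb and hindgut, read 3.48, 3.99, 3.28 and 4.25 FPKM in the trunk and 9.94, 13.0, 10.7 and 11.2 in the caudal region (log2 -1.46 ± 0.11 (SE), adjusted p = 3.16e-07). The groups were more than 5 FPKM apart. Ptch1, its receptor and a direct target, read 9.68, 10.0, 9.44 and 10.2 FPKM in the trunk and 17.0, 18.4, 15.7 and 16.9 in the caudal region, again without overlap (log2 -0.76 ± 0.08 (SE), adjusted p = 5.26e-06). The targets Gli1 (log2 -0.68) and Hhip (log2 -0.67) and the ventral neural tube gene Nkx2-9 (log2 -1.59) were higher in the caudal region too. The transducers Gli2 (log2 -0.05) and Gli3 (log2 -0.03) were not called.

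Epithelial genes were higher in the caudal region in 16 of 23 tested cases and in the trunk in 1, Krt15 (log2 0.35). Krt8, a keratin of simple epithelia, read 6.20, 4.78, 5.89 and 7.09 FPKM in the trunk and 17.4, 15.8, 13.7 and 19.6 in the caudal region (log2 -1.40 ± 0.14 (SE), adjusted p = 4.27e-06). Its partner Krt18 (log2 -1.08), the adhesion proteins Cdh1 (log2 -0.93) and Epcam (log2 -0.93), and Trp63 of stratified skin (log2 -0.29) went the same way, while the basal keratins Krt5 (log2 -0.12) and Krt14 (log2 0.37) were not called. Genes of endothelial cells were higher in the caudal region in 15 of 19 cases and in the trunk in 0, with a smaller median of -0.31.

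Broad growth programmes were shifted by small amounts. Cell cycle genes were higher in the caudal region in 19 of 25 cases and in the trunk in 0, with a median of -0.26, among them the replication proteins Mcm2 (log2 -0.40) and Pcna (log2 -0.38). Genes of glycolysis and glucose uptake were higher there in 16 of 26 cases and in the trunk in 2, Pfkp and Vegfa. Slc2a3, a glucose transporter, read 9.39, 9.22, 9.08 and 10.0 FPKM in the trunk and 23.5, 21.9, 18.7 and 23.0 in the caudal region (log2 -1.16 ± 0.11 (SE), adjusted p = 2.01e-06), and Ldha, which makes lactate, differed by log2 -0.62. Gapdh, another enzyme of the pathway, was not called (log2 -0.82, adjusted p = 0.363).

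Of 20 tested genes linked to developmental timing, 14 were higher in the caudal region and 5 in the trunk. Lin28a, an RNA-binding protein of early embryonic cells, was singled out after its values were seen and read 5.21, 6.49, 4.78 and 8.11 FPKM in the trunk and 13.1, 32.4, 13.8 and 21.4 in the caudal region (log2 -1.57 ± 0.24 (SE), adjusted p = 0.000177). Arg1, an arginine-degrading enzyme placed in the same list, read 11.8, 14.2, 10.2 and 16.9 FPKM in the trunk and 31.1, 41.8, 31.9 and 35.2 in the caudal region (log2 -1.38 ± 0.17 (SE), adjusted p = 2.83e-05). Trim71 (log2 -1.05) and Lin28b (log2 -0.81) were likewise higher in the caudal region. Factors of later differentiation made up the 5 genes of the other direction. Nfia read 3.44, 2.86, 3.72 and 2.77 FPKM in the trunk and 0.982, 0.364, 0.913 and 0.632 in the caudal region (log2 1.62 ± 0.15 (SE), adjusted p = 2.62e-06), and Nfib, Nfic, Nfix and Zbtb20 lay between log2 0.60 and 1.09.

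Pan-neuronal genes, shared by neurons of all kinds, were higher in the trunk in all 30 tested cases, against 17.3% of all genes, 18 of them at 2-fold or more, with a median of 1.09. Stmn3, a microtubule regulator of growing axons, read 35.1, 33.1, 33.8 and 31.6 FPKM in the trunk and 13.2, 6.60, 16.1 and 9.75 in the caudal region (log2 1.58 ± 0.18 (SE), adjusted p = 1.54e-05). The trunk libraries lay within 4 FPKM of each other, while caudal 2 and 4 were lower than caudal 1 and 3. Gap43, a growth cone protein, showed the same order, at 76.0, 73.7, 73.4 and 70.7 FPKM in the trunk and 41.2, 30.0, 47.5 and 34.4 in the caudal region (log2 0.95 ± 0.10 (SE), adjusted p = 9.78e-06). Tubb3 (log2 1.09), Dcx (log2 1.58), Mapt (log2 1.61) and the neurofilaments Nefl (log2 1.46) and Nefm (log2 1.43) differed in the same direction. All 30 were called as well without the libraries with both Xist and Ddx3y.

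Subtypes of neurons followed with exceptions. Among spinal interneuron genes, 18 of 30 were higher in the trunk and 3, Evx1, Evx2 and Lmx1b, in the caudal region, of which Evx1 and Evx2 are also tailbud genes. Slc17a6, the vesicular glutamate transporter of excitatory neurons, read 4.40, 2.87, 3.90 and 1.85 FPKM in the trunk and 0.377, 0.0734, 0.581 and 0.0851 in the caudal region (log2 2.27 ± 0.23 (SE), adjusted p = 6.05e-06). Robo3, the receptor that lets commissural axons cross the midline, read 11.3, 10.7, 11.7 and 10.5 FPKM in the trunk and 3.55, 1.91, 4.21 and 2.44 in the caudal region (log2 1.76 ± 0.17 (SE), adjusted p = 3.81e-06). In both genes caudal 2 and 4 were again the lowest.

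Motor neuron genes were higher in the trunk in 9 of 19 cases and in the caudal region in 3 (Olig2, Aldh1a2 and Isl1). Together 63.2% of them were called, against 36.2% of all genes. Prph, an intermediate filament of peripherally projecting neurons, read 4.76, 4.64, 4.49 and 2.68 FPKM in the trunk and 0.598, 0.255, 0.603 and 0.201 in the caudal region (log2 2.35 ± 0.24 (SE), adjusted p = 4.83e-06), with trunk 4 the lowest of its group. Olig2, the factor of dividing motor neuron progenitors, went the other way at 0.740, 0.733, 0.737 and 1.54 FPKM in the trunk and 3.88, 9.11, 3.84 and 5.25 in the caudal region (log2 -2.02 ± 0.22 (SE), adjusted p = 1.15e-05). Trunk 4 and caudal 2 were the highest of their groups. Mnx1, a factor of postmitotic motor neurons, was not called (log2 -0.26, adjusted p = 0.204). Progenitor genes of the neural tube were mixed, 7 higher in the trunk and 10 in the caudal region of 28 (60.7% called). The 17 calls fell to 10 without trunk 3.

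Genes of neurons derived from the neural crest leaned to the trunk. Sensory neuron genes were higher there in 8 of 15 cases and in the caudal region in 2, among them Neurog2. Autonomic and enteric neuron genes were higher in the trunk in 13 of 21 cases and in the caudal region in 0. The shares called in these lists were 66.7% (sensory) and 61.9% (autonomic and enteric), against 36.2% of all genes. Dbh, the enzyme that makes noradrenaline in sympathetic neurons, read 4.37, 3.55, 4.53 and 3.14 FPKM in the trunk and 0.181, 0.0420, 0.416 and 0.149 in the caudal region, a 19.8-fold difference of the means (log2 2.67 ± 0.30 (SE), adjusted p = 1.22e-05). All 4 caudal libraries were below 0.5. Chgb, a secretory granule protein, differed by log2 1.61, and Phox2a, a factor of the autonomic lineage, by log2 1.08. Ret, the receptor of enteric precursors, was not called (log2 -0.22, adjusted p = 0.0554).

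**Figure D3:**
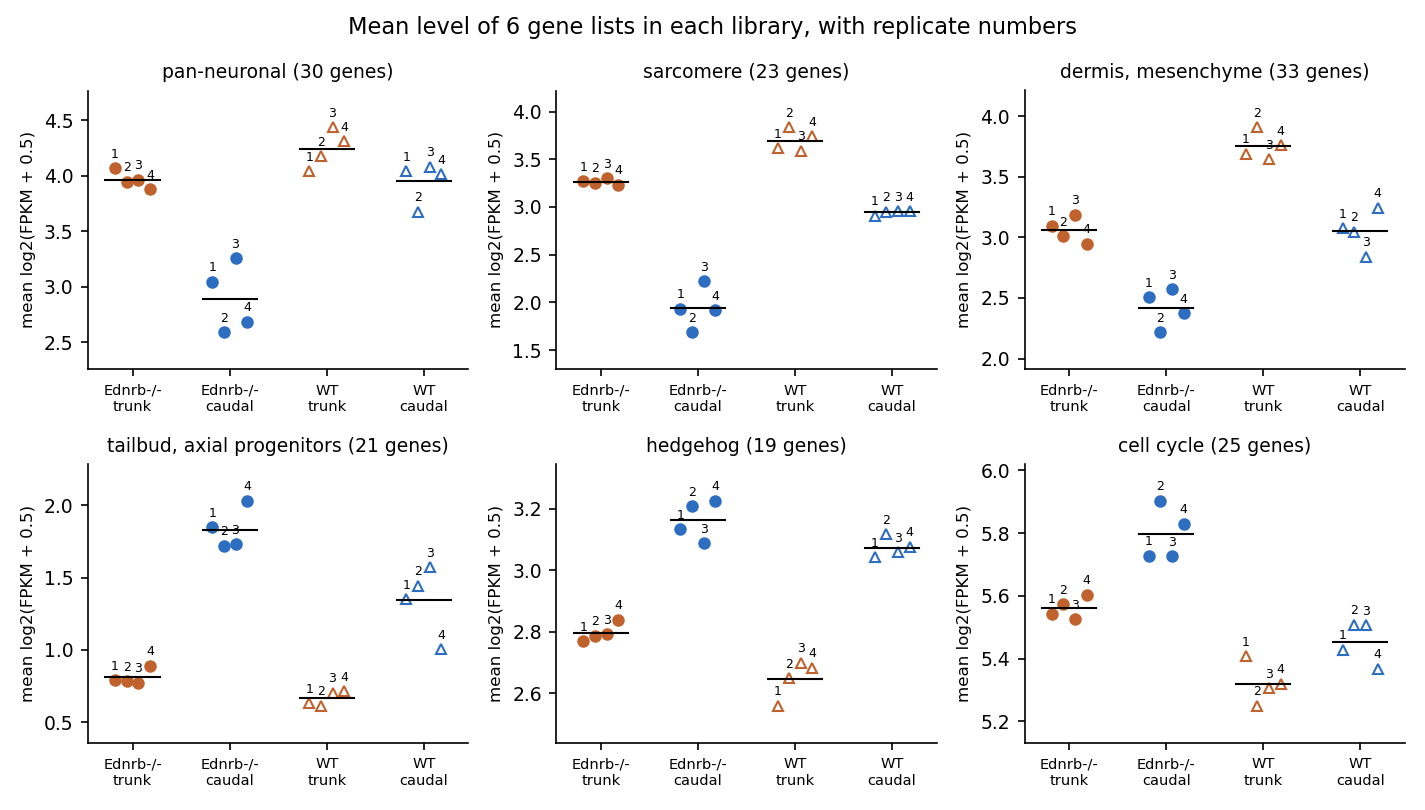
Mean log2(FPKM + 0.5) of the tested members of 6 gene lists (y axis) in each of the 16 libraries (points, numbered by replicate) by group (x axis), with black lines at group means. Pan-neuronal means ran from 3.88 to 4.07 in the Ednrb-/- trunk and from 2.59 to 3.26 in the Ednrb-/- caudal region, lowest in caudal 2 and 4.

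Sarcomere genes, which encode the contractile apparatus of striated muscle, were higher in the trunk in 21 of 23 cases, 15 of them at 2-fold or more, with a median of 1.51. Des and Tnni2 were the 2 not called. Fast muscle light chain genes are shown with the 250 bases before their start (RefSeq, GRCm38.p6), because myogenic factors bind E-boxes and both windows hold 1 CAGCTG, in capitals. Myl1 lies at chr1:66945057-66945306 on the minus strand and Mylpf at chr7:127211358-127211607 on the plus strand.
Myl1 promoter: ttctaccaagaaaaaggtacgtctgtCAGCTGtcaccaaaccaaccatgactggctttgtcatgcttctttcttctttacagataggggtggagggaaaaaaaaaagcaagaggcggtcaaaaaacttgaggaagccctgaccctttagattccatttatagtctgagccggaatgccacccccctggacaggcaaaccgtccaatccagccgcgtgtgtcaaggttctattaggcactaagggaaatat
Mylpf promoter: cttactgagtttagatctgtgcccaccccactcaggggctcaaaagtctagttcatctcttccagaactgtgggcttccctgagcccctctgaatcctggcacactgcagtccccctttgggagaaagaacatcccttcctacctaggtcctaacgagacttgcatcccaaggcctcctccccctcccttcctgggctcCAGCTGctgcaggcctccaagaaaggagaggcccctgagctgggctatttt
This motif, which reads the same on both strands, occurs in 4271 of all 32851 windows (13%), in 9 of the 19 sarcomere genes that have a window (47.4%) and in 14.4% of the 11098 tested genes that have one. It is not particular to muscle genes: it also occurs in 5 of 17 pan-neuronal genes with a window (29.4%) and 4 of 19 presomitic ones (21.1%). Among genes called at 2-fold or more it occurs in 57 of 223 with a window in the trunk direction (25.6%) and 10 of 54 in the caudal direction (18.5%).

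Myl1 read 16.7, 16.9, 16.2 and 14.5 FPKM in the trunk and 2.84, 1.92, 5.34 and 3.72 in the caudal region (log2 2.14 ± 0.18 (SE), adjusted p = 7.09e-07). Mylpf, singled out after its values were seen, read 69.2, 69.5, 66.7 and 62.6 FPKM in the trunk and 24.1, 15.6, 28.9 and 18.1 in the caudal region (log2 1.65 ± 0.13 (SE), adjusted p = 5.91e-07). Both were nearly level over the trunk libraries and lowest in caudal 2. Tnnt1, the slow muscle troponin T, read 28.4, 24.8, 27.8 and 26.3 FPKM in the trunk and 5.51, 2.85, 7.02 and 4.25 in the caudal region, also lowest in caudal 2 (log2 2.40 ± 0.17 (SE), adjusted p = 1.74e-07). Actc1, the cardiac actin that embryonic skeletal muscle also uses, read 117, 119.9, 118 and 113 FPKM in the trunk and 46.6, 43.9, 53.5 and 46.1 in the caudal region (log2 1.29 ± 0.07 (SE), adjusted p = 9.34e-09). Myh8, the perinatal myosin heavy chain, read 1.49, 1.48, 1.83 and 1.23 FPKM in the trunk and 0.0138, 0.0192, 0.0857 and 0.0146 in the caudal region (log2 1.91 ± 0.12 (SE), adjusted p = 7.49e-08). Its caudal libraries were near 0.

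Regulators of myogenesis were mixed, with 7 of 17 higher in the trunk and 6 in the caudal region (76.5% called, against 36.2% of all genes). Myod1, the factor that commits cells to muscle, read 6.71, 5.83, 6.95 and 5.42 FPKM in the trunk and 0.671, 0.395, 1.02 and 0.401 in the caudal region (log2 2.61 ± 0.19 (SE), adjusted p = 2.61e-07). Myog, which drives fusion and differentiation, read 37.2, 38.4, 40.6 and 34.0 FPKM in the trunk and 13.7, 11.6, 16.7 and 12.4 in the caudal region (log2 1.44 ± 0.10 (SE), adjusted p = 7.72e-08). Neither overlapped between regions. Pax7, a factor of muscle progenitors, was also higher in the trunk (log2 0.55). Those higher in the caudal region included Eya1, Met, Eya2, Six4 and Dmrt2, from log2 -0.98 for Eya1 to -0.23 for Dmrt2. Pax3, the factor of the dermomyotome, was not called (log2 -0.24, adjusted p = 0.139).

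Connective tissue genes of dermis and mesenchyme were higher in the trunk in 22 of 33 cases and in the caudal region in 2, Hapln1 and Fn1, with a median of 0.63. Lum, a small proteoglycan of the collagen matrix, read 21.5, 19.3, 22.3 and 14.2 FPKM in the trunk and 4.74, 4.07, 6.33 and 4.07 in the caudal region (log2 1.90 ± 0.16 (SE), adjusted p = 7.07e-07). Its trunk libraries were at least 14 FPKM and its caudal ones under 7. Igf1, a growth factor of mesenchyme, read 24.9, 21.1, 24.6 and 18.8 FPKM in the trunk and 9.35, 7.32, 10.1 and 8.04 in the caudal region (log2 1.31 ± 0.12 (SE), adjusted p = 2.12e-06). The collagens Col1a1 (log2 0.73), Col12a1 (log2 1.497) and Col6a1 (log2 1.12) and the tendon factor Scx (log2 0.99) differed in the same direction. Hic1, a transcriptional repressor of mesenchymal progenitors, read 8.24, 6.23, 8.01 and 5.98 FPKM in the trunk and 1.49, 0.924, 1.97 and 1.32 in the caudal region (log2 2.00 ± 0.20 (SE), adjusted p = 4.99e-06). Gata4, a factor of gonad and visceral mesoderm, read 2.96, 2.52, 2.88 and 3.64 FPKM in the trunk and 0.0904, 0.362, 0.409 and 0.618 in the caudal region (log2 2.04 ± 0.32 (SE), adjusted p = 0.00023). Twist1 (log2 0.03), Twist2 (log2 0.15) and Pdgfra (log2 -0.07), broad mesenchyme genes, were not called.

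The lineage that depends on the receptor was read through melanoblast genes, of which 9 of 17 passed the filter. In the caudal region 3 were higher, in the trunk 1, Ednrb itself, and the levels were low. Together 44.4% of the 9 were called, near the 36.2% of all genes. Mitf, the master regulator of pigment cells, read 0.424, 0.461, 0.558 and 0.396 FPKM in the trunk and 0.797, 0.607, 0.787 and 0.769 in the caudal region (log2 -0.37 ± 0.09 (SE), adjusted p = 0.00536). Pmel, a melanosome matrix protein, read 0.176, 0.137, 0.0749 and 0.141 FPKM in the trunk and 0.734, 0.432, 0.807 and 0.401 in the caudal region (log2 -0.77 ± 0.13 (SE), adjusted p = 0.000356). For neither gene did the regions overlap, although every Mitf and Pmel value was under 1 FPKM.

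Kit, the receptor for stem cell factor that melanoblasts, germ cells and other cells carry, read 3.97, 3.57, 3.83 and 3.42 FPKM in the trunk and 4.70, 4.57, 4.81 and 4.55 in the caudal region (log2 -0.30 ± 0.06 (SE), adjusted p = 0.000845). Dct, an early enzyme of melanin synthesis, read 0.285, 0.179, 0.183 and 0.135 FPKM in the trunk and 0.309, 0.144, 0.371 and 0.185 in the caudal region, and the groups overlapped (log2 -0.11 ± 0.15 (SE), adjusted p = 0.626). Sox10, the crest factor of melanoblasts and glia, read 8.07, 7.37, 7.65 and 9.59 FPKM in the trunk and 9.61, 10.0, 8.79 and 8.50 in the caudal region, also overlapping (log2 -0.17 ± 0.08 (SE), adjusted p = 0.122). Without trunk 4 it passed, at log2 -0.25 and adjusted p = 0.0208. Gpnmb (log2 -0.08), Rab38 (log2 0.16) and Slc24a5 (log2 0.23) were not called. Gpnmb rested on 16 trunk and 44 caudal reads, so the added constant holds its difference near 0. Slc24a5 passed without trunk 4 (adjusted p = 0.0289), with TPM (0.0273) and with array weights (0.0429). Tyrp1 was listed at 0 in all 8 libraries, and Tyr was at most 0.0276 FPKM in the trunk and 0.0236 in the caudal region. Mlana, Slc45a2, Trpm1, Mlph, Oca2 and Mc1r were below the filter as well, and 4 against 4 libraries cannot show a difference in such genes once p is adjusted over 12, unless many of them reach the smallest p.

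Of 6 tested genes of the endothelin system 3 were higher in the trunk, Ednrb, Ednra and Ecel1, and 1, Ece1, in the caudal region. That is 66.7% called, against 36.2% of all genes. Edn3, the ligand of the missing receptor, read 3.22, 2.92, 3.44 and 3.06 FPKM in the trunk and 3.43, 2.49, 2.90 and 3.00 in the caudal region, overlapping (log2 0.09 ± 0.09 (SE), adjusted p = 0.478). Ednra, the other endothelin receptor, read 13.2, 13.6, 13.8 and 11.0 FPKM in the trunk and 10.8, 7.86, 9.98 and 9.04 in the caudal region, narrowly apart (log2 0.44 ± 0.13 (SE), adjusted p = 0.0134). The call was lost without caudal 2 (log2 0.36, adjusted p = 0.0514) and without the libraries with both Xist and Ddx3y (adjusted p = 0.0527). Ece1, the protease that activates endothelins, read 11.9, 12.1, 13.4 and 15.4 FPKM in the trunk and 15.8, 16.3, 15.5 and 16.4 in the caudal region (log2 -0.28 ± 0.07 (SE), adjusted p = 0.00904). Edn1 read 1.39, 0.774, 1.34 and 1.38 FPKM in the trunk and 0.965, 1.95, 1.73 and 2.15 in the caudal region (log2 -0.34 ± 0.20 (SE), adjusted p = 0.199), and passed without caudal 1 (log2 -0.52, adjusted p = 0.0344). Ecel1, a relative of Ece1 found in neurons, read 8.11, 8.40, 7.67 and 8.72 FPKM in the trunk and 3.54, 2.26, 3.56 and 2.47 in the caudal region (log2 1.36 ± 0.15 (SE), adjusted p = 1.15e-05). Its regions were well apart.

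Signals known to guide or sustain melanoblasts and their crest relatives were higher in the trunk in 14 of 36 cases and in the caudal region in 7, with a median of 0.05. Together 58.3% of them were called, against 36.2% of all genes. Gdnf, which attracts enteric precursors through Ret, read 0.458, 0.451, 0.581 and 0.317 FPKM in the trunk and 2.39, 2.66, 2.58 and 2.84 in the caudal region (log2 -1.72 ± 0.21 (SE), adjusted p = 2.53e-05). Every caudal library was at least 2.3 and every trunk library under 0.6. Kitl, the stem cell factor, was singled out after its values were seen, at 9.06, 9.37, 8.57 and 8.56 FPKM in the trunk and 9.76, 9.96, 9.77 and 9.57 in the caudal region. The regions did not overlap, but the gene was not called (log2 -0.13 ± 0.06 (SE), adjusted p = 0.12), and it passed when the 8 Ednrb-/- libraries were fitted alone (adjusted p = 0.0433). Cxcl12, a chemokine of migrating crest cells, also singled out after its values were seen, read 44.8, 44.5, 45.4 and 40.9 FPKM in the trunk and 41.0, 41.3, 45.4 and 44.0 in the caudal region, overlapping (log2 0.03 ± 0.06 (SE), adjusted p = 0.729). Genes of Schwann cells and crest glia were higher in the trunk in 9 of 18 cases and in the caudal region in 3 (Gfra3, Mbp and Ets1). These made 66.7% called, against 36.2% of all genes, and 7 were called without trunk 1 or without caudal 2. Fabp7, a lipid-binding protein of glial precursors, read 101, 93.3, 96.3 and 78.4 FPKM in the trunk and 41.2, 25.6, 50.2 and 29.4 in the caudal region (log2 1.36 ± 0.16 (SE), adjusted p = 2.34e-05).

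Regional differences in the Ednrb-/- embryos were set against those in WT embryos, which share no library with them. In WT, 3103 of 17205 genes (18.0%) differed between the regions, 1667 higher in the trunk (9.69%) and 1436 in the caudal region (8.35%), and at 2-fold or more 130 genes in the trunk direction (0.756%) and 84 in the caudal direction (0.488%). The difference of the differences, tested as an interaction in limma, was called for 1163 genes (6.76%), 650 positive (3.78%) and 513 negative (2.98%), and at 2-fold or more for 88 positive (0.511%) and 33 negative (0.192%). The split by sign moved with the scaling, to 1126 positive and 299 negative with TPM, 1187 and 449 in voom and 725 and 397 with quantile normalization. Across the 17205 genes, which are not independent replicates, both sets of log2 differences had a Pearson r of 0.626. Of the 465 genes at 2-fold or more in Ednrb-/-, 434 had the same sign in WT, 305 were also called there with that sign, and 165 had a called interaction. In 426 of these 465 the difference was larger in Ednrb-/-, and in 81 of the 214 genes at 2-fold or more in WT, so that in each case most genes were larger in the genotype used to choose them. The interaction count fell to 585 without Ednrb-/- caudal 4, 606 without trunk 1, 672 without trunk 3, 673 without caudal 2, 648 without WT trunk 1 and 670 without WT caudal 1. Single interactions below are given for genes that stayed called without each library in turn, and for Pitx1, which did not.

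**Figure D4:**
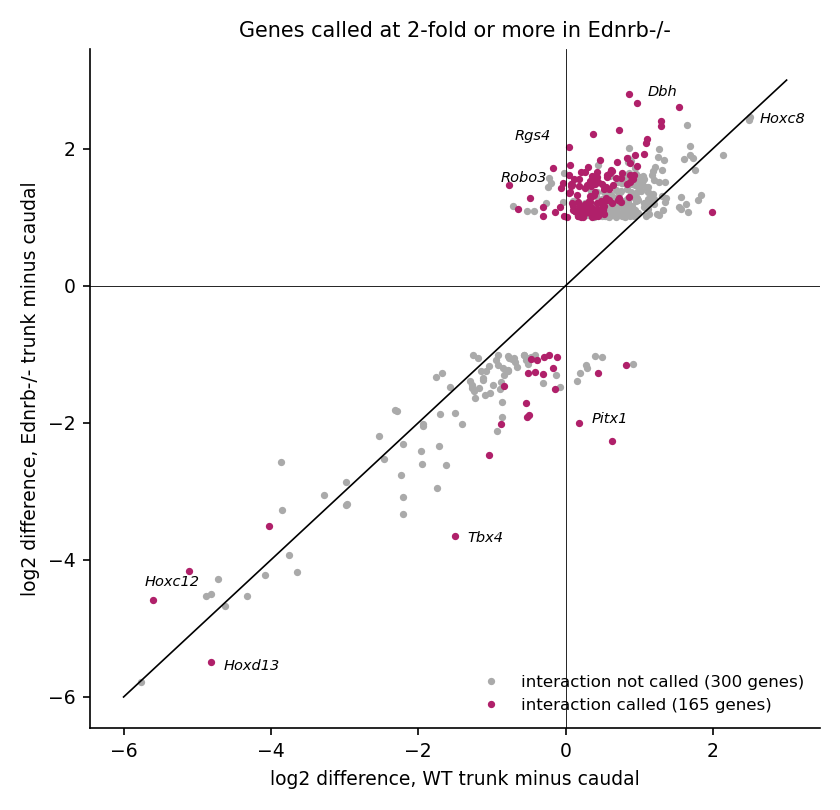
Log2 trunk minus caudal difference in Ednrb-/- (y axis) against WT (x axis) for the 465 genes called at 2-fold or more in Ednrb-/-, coloured by whether the interaction was called (165) or not (300), with the line of equal differences. Of the 465 genes, which were chosen by their Ednrb-/- difference, 426 lie further from 0 on the y axis than on the x axis.

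Several lists differed about as much or more in WT. Hox groups 10 to 13 had a WT median of -4.47, with 12 of 12 higher in the caudal region. The hedgehog median was -0.43 (14 of 19 caudal) and the dermis and mesenchyme median 0.76 (22 of 33 trunk). WT medians were smaller in size for the tailbud (-0.53), presomitic (-0.51), hindlimb (-0.12) and epithelial (-0.38) lists. Neuronal and muscle genes had larger regional differences in Ednrb-/- than in WT. Of the 30 pan-neuronal genes, 20 had a positive interaction, against 3.78% of all genes, and in WT 7 were called with a median of 0.27. The 20 fell to between 11 and 13 when Ednrb-/- trunk 1, caudal 2 or caudal 4, or WT trunk 1, trunk 2 or caudal 1 was left out, and rose to 24 without the libraries with both Xist and Ddx3y. Summed over the list, FPKM were 855 to 966 in the trunk and 321 to 548 in the caudal region of Ednrb-/- embryos, and 923 to 1200 and 755 to 1002 in WT, so the caudal libraries of the genotypes lay further apart than the trunk ones. Tailbud genes summed to 98.5 to 123 FPKM in the Ednrb-/- caudal region and 62.7 to 88.9 in WT, where caudal 4 stood lowest: its mean log2(FPKM + 0.5) over the tailbud list was 1.01, against 1.35 to 1.57 in the other 3 WT caudal libraries, and over the presomitic list 2.11 against 2.63 to 2.86. The part of this difference in the neuronal and muscle results was not tested. Robo3 differed by log2 1.76 in Ednrb-/- and 0.05 in WT (interaction log2 1.71 ± 0.24 (SE), adjusted p = 0.00249). Rgs4, a regulator of G protein signalling found in neurons, read 13.7, 14.1, 14.0 and 12.6 FPKM in the trunk and 4.00, 1.48, 5.86 and 2.01 in the caudal region of Ednrb-/- embryos. It differed by log2 2.03 there and 0.05 in WT (interaction log2 1.98 ± 0.35 (SE), adjusted p = 0.00701). Slc17a6 (interaction log2 1.54, adjusted p = 0.0155), Pou3f1, a factor of motor neuron subtypes (1.43, adjusted p = 0.00886), and Ecel1 (1.31, adjusted p = 0.00433) had positive interactions as well.

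Among sarcomere genes, 14 of 23 had a positive interaction, and 9 without Ednrb-/- trunk 1 or WT trunk 1. In WT 19 were called, with a median of 0.75 against 1.51 in Ednrb-/-, and the list summed to 589 to 720 FPKM in the trunk and 356 to 382 in the caudal region, against 445 to 471 and 148 to 209 in Ednrb-/-. Tnnt1 (interaction log2 1.11, adjusted p = 0.016) and Mylpf (1.04, adjusted p = 0.00745) were among them. A pair of myogenic factors changed sign between the genotypes. Myf6, a factor of late differentiation, read 3.40, 3.41, 3.81 and 4.67 FPKM in the trunk and 2.52, 2.04, 2.22 and 1.84 in the caudal region of Ednrb-/- embryos (log2 0.70 ± 0.15 (SE), adjusted p = 0.00216). In WT it was lower in the trunk, at 1.11, 1.09, 0.839 and 0.929 FPKM against 2.38, 3.21, 3.42 and 1.76 (log2 -1.07, interaction log2 1.77 ± 0.21 (SE), adjusted p = 0.000845). Myf5, singled out after its values were seen, read 8.79, 8.36, 8.13 and 7.84 FPKM in the Ednrb-/- trunk and 4.54, 4.75, 5.43 and 4.24 in the caudal region (log2 0.75 ± 0.12 (SE), adjusted p = 0.000285). In WT it differed by log2 -0.82 (interaction log2 1.57 ± 0.17 (SE), adjusted p = 0.000419).

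Some caudal genes also separated the genotypes. Tbx4 differed by log2 -3.65 in Ednrb-/- and -1.498 in WT (interaction log2 -2.15 ± 0.49 (SE), adjusted p = 0.0186), and the call was lost in voom on whole reads (adjusted p = 0.133). The mean log2(FPKM + 0.5) of the 4 hindlimb genes ran from 1.81 to 3.16 over the WT caudal libraries. It ran from 3.15 to 3.50 over the Ednrb-/- caudal ones, and from 2.06 to 2.60 over the WT trunk ones. The part of this spread in the Tbx4 and Pitx1 interactions was not tested. Pitx1 was not called in WT, with means of 5.09 ± 1.77 FPKM (SD, n = 4) in the trunk and 5.14 ± 3.80 in the caudal region (interaction log2 -2.19 ± 0.53 (SE), adjusted p = 0.026), and the interaction was lost without Ednrb-/- trunk 3 or caudal 4 or WT trunk 1 or caudal 1, at adjusted p = 0.0553, 0.0556, 0.0568 and 0.0534. The progenitor gene Nkx1-2 read 0.247, 0.227, 0.248 and 0.273 FPKM in the trunk and 0.998, 1.5, 0.970 and 1.48 in the caudal region of Ednrb-/- embryos and differed by log2 -0.16 in WT (interaction log2 -1.03 ± 0.18 (SE), adjusted p = 0.00631). Ripply1 differed by log2 -1.89 and -0.50 (interaction log2 -1.39 ± 0.25 (SE), adjusted p = 0.00745). Hoxb9 had the larger trunk excess in Ednrb-/- (1.12 against 0.37, interaction log2 0.75 ± 0.16 (SE), adjusted p = 0.0153).

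**Figure D5:**
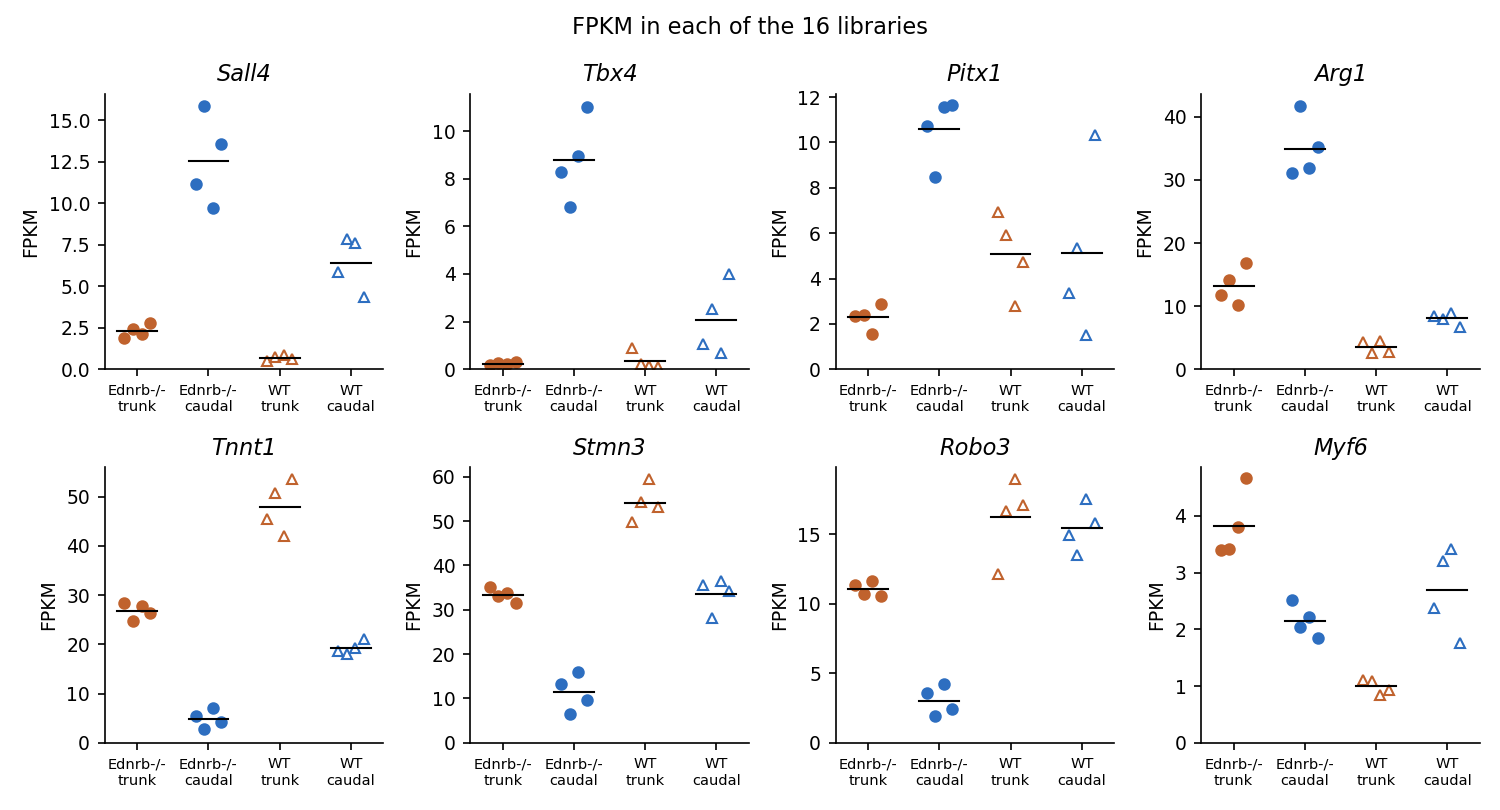
FPKM (y axis, from 0) of 8 genes in each of the 16 libraries (points) by genotype and region (x axis), with lines at group means and 1 panel for each gene. Tbx4, Sall4 and Arg1 are higher in the Ednrb-/- caudal libraries, Tnnt1, Stmn3 and Robo3 in the Ednrb-/- trunk libraries, and Myf6 is higher in the trunk in Ednrb-/- and lower there in WT.

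In 3 melanoblast genes the fitted caudal excess was larger in WT, which gives a positive interaction. Pmel differed by log2 -0.77 in Ednrb-/- and -1.85 in WT (interaction log2 1.07 ± 0.18 (SE), adjusted p = 0.00549). Dct differed by -0.11 and -1.15 (interaction log2 1.04 ± 0.22 (SE), adjusted p = 0.0128), and Gpnmb, a related melanosome protein, by -0.08 and -1.0 (interaction log2 0.92 ± 0.17 (SE), adjusted p = 0.00816). WT means of Dct were 0.476 ± 0.206 FPKM (SD, n = 4) in the trunk and 1.63 ± 0.202 in the caudal region. Dct and Gpnmb read under 0.5 FPKM in every Ednrb-/- library and passed the filter only through WT libraries. The 0.5 FPKM added before logarithms holds their Ednrb-/- differences near 0, so their interactions were partly set in advance. As a ratio of means, the Ednrb-/- caudal region stood at 3-fold the trunk for Gpnmb (44 against 16 reads). The ratio was 4.49 for Pmel and 1.29 for Dct. The interactions of Pmel and Gpnmb were lost with a pseudocount of 0.1 and in limma voom on whole reads. Cxcl12 was lower in the WT trunk (log2 -0.51) and level in Ednrb-/- (interaction log2 0.54 ± 0.09 (SE), adjusted p = 0.00489).

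Markers of tissues that a dissection could bring along were summed over each list. Red blood cell genes summed to 3751 to 4257 FPKM in the Ednrb-/- trunk and 3815 to 6181 in the caudal region, and 1 of 19, Tfrc, was called, in the caudal direction. Macrophage genes summed to 35.0 to 40.5 and 31.1 to 46.1 FPKM, with Mrc1 and F13a1 of 16 called, in the trunk direction. Of the 24 liver genes 4 passed the filter, with sums of 11.4 to 12.7 and 9.41 to 11.2 FPKM, and Vtn was called in the trunk direction. Heart genes summed to 36.8 to 39.6 FPKM in the trunk and 12.1 to 18.8 in the caudal region, with 7 of 10 called in the trunk direction, 5 of them also in the sarcomere list, and Nkx2-5 was at 0 in all 8 libraries. Head genes summed to 5.12 to 6.16 and 2.45 to 3.46 FPKM, with 4 of 5 called in the trunk direction, of which Lhx2 and Barhl2 are also in the interneuron list, and Otx2 was at 0 throughout. The part of the head and heart list differences in the neuronal and muscle results was not tested.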

How the data were processed

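The deposited table gave FPKM for every gene in 16 bulk RNA-seq libraries, made by the authors from total RNA extracted with TRIzol, per the labels' protocols. Per the submitters' processing notes the tools were fastp, HISAT2 2.0.5 and featureCounts 1.5.0-p3 with mm39, and those notes, as far as used here, do not say how FPKM were scaled. Multiplying each FPKM by gene length gave whole multiples of 1 unit per library, within 0.01, for all values, and these whole reads gave the depths, the floors and a count-based alternative. The replicate spread over 4 libraries, not depth, limits the precision for most genes, and 1 read sets it for those near 0.

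Genes with at least 0.5 FPKM in 4 or more libraries were tested on log2(FPKM + 0.5) with limma 3.58.1 in R 4.3.3, with a mean for each of the 4 groups over all 16 libraries, an intensity trend, and Benjamini-Hochberg adjustment over 17205 genes. Fold changes on this scale understate the change of low genes. The interaction is the Ednrb-/- difference minus the WT difference. The 12 low genes were compared by exact permutation tests. Members and lists were chosen with earlier results of these data known, and lists are described by counts and medians beside those of all genes. Genes were named by rule: Ednrb, every Hox gene, the 15 largest differences of each direction among called protein-coding genes with a mean of 1 FPKM, the 6 largest interactions of each sign, in each list the 6 members with the lowest adjusted p at most, and all endothelin and melanoblast genes. Others, including members named as exceptions to a list's direction or as not called, were chosen after their values were seen. A part of these is printed, and some are not reported here.

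Alternatives were other pseudocounts, filters and scalings, limma voom on the whole reads (6162 genes called), array weights, the Ednrb-/- libraries alone, a replicate block, an Xist and Y-linked term, the sex chromosomes and mitochondria left out, and each library left out. The regional test was run on simulated reads with the same fixed spread for every gene and few changed genes, none of them low. That run does not cover low genes, the interaction or a comparison with as many calls as here. Figures were drawn with matplotlib 3.10.9 in Python 3.11.15. Sequences came from RefSeq tables of GRCm38.p6, matched by symbol for 11098 tested genes, and no coordinate of that build was joined to the mm39 table.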

Additional observations from a re-analysis of the deposited data

Results flagged for a closer look

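In 11 of the 214 groups of 4 Ednrb-/- libraries examined (107 genes, trunk and caudal), 1 library stood apart from the other 3 by more than Dixon's critical value for 4 values. Chance alone flags about 5% of such groups. In the trunk these were Edn1 in trunk 2 (0.774 FPKM), Hotair in trunk 1 (0.0472 FPKM), Cdx2 in trunk 4 (0.0438 FPKM) and Msgn1 in trunk 2 (0.466 FPKM). For Hotair, Cdx2 and Msgn1 the other 3 libraries were at 0, so any read in the fourth meets the rule, and the trunk held 4, 4 and 10 reads of them. Trunk 4 stood apart in 3 motor neuron genes, Prph (2.68 FPKM), Chodl (2.12 FPKM) and Olig2 (1.54 FPKM). In the caudal region they were Mitf in caudal 2 (0.607 FPKM) and Gpnmb (0.12 FPKM), Hoxc6 (21.1 FPKM) and Myh8 (0.0857 FPKM) in caudal 3.

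By the interaction in limma, the regional difference itself differed between genotypes for the 27 genes given here. All 27 were picked as genes with a called interaction, so this is not a count over the 107 genes examined. Of the Hox genes of groups 10 to 13, 2 had a positive and 1 a negative called interaction, and only Hoxc12 is given. Positive interactions in neuronal genes, with adjusted p from 0.00249 for Robo3 to 0.017 for Lhx1, were log2 1.71 for Robo3, 1.54 for Slc17a6, 1.43 for Pou3f1, 1.07 for Lhx1, 1.02 for Celf3, 0.84 for Snap25, 0.74 for Gap43, 1.98 for Rgs4 and 1.31 for Ecel1. The potassium channel subunit Kcnmb2 read 6.44, 5.46, 5.69 and 4.38 FPKM in the Ednrb-/- trunk and 1.77, 0.742, 2.20 and 0.899 in the caudal region, with an interaction of 1.89. Muscle genes gave 1.11 for Tnnt1, 0.86 for Tnnc1, 1.04 for Mylpf, 0.44 for Actc1, 1.57 for Myf5 and 1.77 for Myf6. Melanoblast genes gave 1.07 for Pmel, 1.04 for Dct and 0.92 for Gpnmb. Hoxb9 gave 0.75 and Hoxc12 1.02, with a smaller caudal level of Hoxc12 in Ednrb-/- (11.6 ± 1.38 FPKM, SD, n = 4) than in WT (24.4 ± 5.93). The Hoxc12 interaction was lost in limma voom on whole reads (adjusted p = 0.725), as was that of Tbx4 (0.133). Nfia gave 1.05 and Cxcl12 0.54. Negative interactions among the 27 were -2.19 for Pitx1, -2.15 for Tbx4, -1.39 for Ripply1 and -1.03 for Nkx1-2.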

How the results depend on the processing

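No recomputed difference or interaction of the 107 genes followed here changed direction at its call under the alternatives run, but the balance of all calls did: 47.8% were higher in the trunk, 66.9% with TPM, 57.3% in voom and 51.2% with no filter. The median over all genes moved from -0.01 to 0.05 with TPM, and the small medians of the Wnt, macrophage and retinoic acid lists changed sign under some scalings. The 6234 regional calls in Ednrb-/- ranged from 4875 (without caudal 2) to 6264 (without caudal 3) when 1 library was left out. The 465 calls at 2-fold ranged from 385 to 551, and were 893 with a pseudocount of 0.1, 274 with 1 and 1079 in limma voom on whole reads. The interaction count ranged from 585 to 1488 with a library left out and was 571 with no filter on low values. The WT count ranged from 2153 to 3242 and was 1912 without the libraries holding both Xist and Ddx3y. The deviations of same-numbered libraries correlated at 0.0411, -0.000991, 0.0462 and 0.0691, and not every library correlated best with its own number. These correlations alone cannot show whether same-numbered regions came from the same embryo. In Ednrb-/-, Xist and Ddx3y were 135.4 and 0.977 FPKM in trunk 2, and 0.251 and 17.4 in caudal 2. In WT they were 147.8 and 0.122 FPKM in trunk 4, and 0.819 and 18.3 in caudal 4. In these pairs the same number thus did not mean the same embryo. Ednrb-/- trunk 3 and caudal 3 both held Xist and Ddx3y. With the replicate block 6238 genes were called, 463 at 2-fold, and 1128 interactions. Of 2347 recomputed gene differences 2339 kept their direction and call, 2 for Ednra lost the call and 6 gained one. Of 779 recomputed interactions 767 kept it and 12, in Pmel, Gpnmb, Hoxc12, Tbx4 and Pitx1, lost it. Apart from Pitx1, these genes were chosen as staying called without each library in turn, so the share kept was partly fixed by that choice. The cause of the changes under the alternatives was not tested.

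The labels do not tie regions to embryos, and 4 libraries a group limit what the interaction can show. Low genes such as most pigment genes rest on few reads. The share of reads from ribosomal protein genes differed between the regions, while the depth of the libraries overlapped. The part of either in the results was not tested.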

Other observations

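Secreted signals were spread over both regions of the Ednrb-/- embryos. The share called was 76.7% in the FGF list and 52.6% in the Wnt list. It was 53.5% in the BMP and TGF-beta list and 65% in the retinoic acid list, against 36.2% of all genes. Of 30 tested genes of the FGF pathway 18 were higher in the trunk and 5 in the caudal region, Fgf17, Fgf8, Fgf3, Fgf18 and Fgfr2, of which the first 4 encode ligands. Fgf11, an intracellular FGF relative of neurons, was the most trunk-biased of the list (log2 1.74). Of 57 Wnt pathway genes 13 were higher in the trunk and 17 in the caudal region, where Lef1 (log2 -0.70) and Tcf7 (log2 -0.65), the nuclear partners of beta-catenin, were higher together with Sp5 (log2 -1.05), while the target Axin2 was not called (log2 -0.07, adjusted p = 0.412). Of 43 BMP and TGF-beta genes 15 were higher in the trunk and 8 in the caudal region, led by the inhibitor Cer1 (log2 -2.95). In the retinoic acid list, 7 of 20 were higher in the caudal region, including the synthesizing enzymes Aldh1a2 (log2 -0.64) and Aldh1a3 (log2 -0.90) and the degrading enzyme Cyp26a1 (log2 -0.55), and 6 in the trunk, led by the receptor Rxrg (log2 1.57).

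Of 24 tested urogenital genes 7 were higher in the trunk, 6 in the caudal region and 11 were not called, so 54.2% were called against 36.2% of all genes. The metanephric genes Six2 (log2 -1.85), Gdnf (log2 -1.72), Cited1 (log2 -1.49) and Eya1 (log2 -0.98) were higher in the caudal region. Of those higher in the trunk, the gonadal and adrenal genes Nr5a1 (log2 1.58), Lhx9 (log2 1.66) and Gata4 (log2 2.04) differed most. By family, 101 of 144 homeobox genes (70.1%) were called, and 62.9% of the 105 outside the Hox clusters, against 36.2% of all genes and 42.2% of protein-coding ones. Pou genes (90% of 10) and bHLH genes (52.5% of 80) were above that share, and C2H2 zinc-finger genes (21.6% of 491) and long noncoding RNAs (18.5% of 1457) below it.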
